A study of Mus musculus with 2 samples.

Results

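Osteocytes are the bone cells that osteoblasts become when they are buried in the matrix they secrete. In these data they were taken as the cells with at least 1 UMI (unique molecular identifier, 1 counted RNA molecule) of at least 4 of 7 marker genes, Dmp1, Phex, Ackr3, Pdpn, Cd109, Ptprz1 and Dkk1, with no UMI of endothelial Cdh5 or of the leukocyte gene Ptprc and with fewer than 5 UMIs of the cartilage gene Acan. This rule gave 625 osteocytes among 55783 cells that held 500 to 6000 detected genes and under 25% mitochondrial UMIs: 270 of 26466 in the Control library and 355 of 29317 in the Dach1OE library. Both libraries came from femur and tibia of C57BL/6 mice at postnatal day 30, male and female, all given Tamoxifen, and each group was 1 library made from a pooled pair of mice. Control mice were Dach1OE +/f, which carry the transgene without Cre, and Dach1OE mice were Apj CreERT2 - Dach1OE +/f, in which a tamoxifen-activated Cre under the promoter of the apelin receptor, a gene of endothelial cells, switches on the transcription factor DACH1. The epiphysis was removed, the bones were digested with collagenase and crushed, and CD45+ and CD117+ cells were depleted on beads before capture on the BD Rhapsody platform. With 1 library per group there was no replicate check of any difference between the groups, so every interval below is a 95% interval of counting error alone, and cells are not replicates.

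Osteocytes sit in lacunae and touch each other and the bone surface through dendritic processes in canaliculi. They are known for sensing mechanical load, for restraining Wnt signalling through sclerostin (the product of Sost) and DKK1, for controlling osteoclasts through RANKL (Tnfsf11) and its decoy receptor osteoprotegerin (Tnfrsf11b), and for regulating phosphate through DMP1, PHEX, MEPE and FGF23. During the passage from osteoblast to osteocyte, expression of alkaline phosphatase declines and genes for dendrites and mineral regulation come on.

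The comparison cells were 5031 osteoblasts (2342 in Control, 2689 in Dach1OE), which passed the same filters, were not osteocytes and held a UMI of at least 3 of Sp7, Alpl, Ibsp, Ifitm5 and Smpd3. Osteocytes were as deeply sampled in both libraries, with a median per cell of 7386.5 UMIs and 1946.5 genes in Control and of 7493 UMIs and 1932 genes in the Dach1OE library, against 5658 and 6528 UMIs in osteoblasts. The libraries held 28720 and 32028 cells before the filters, at 1.51 and 1.45 reads per UMI. They shared 1049 cell barcodes, 3.65% of those of Control and 3.28% of those of Dach1OE. Scrublet, a doublet caller, marked 12 Control osteocytes (4.44%) and 11 Dach1OE osteocytes (3.10%), against 6.53% and 6.60% of all cells kept. Dach1, the targeted gene, had 3.83 and 3.29 CPM (UMIs per 1000000 summed UMIs of the cell set) in Control and Dach1OE osteocytes, from 8 and 9 UMIs, against 4.87 and 169 CPM in endothelial cells. Dach1 was thus higher in the endothelium of the Dach1OE library, and a difference in osteocytes was not detectable at this depth.

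The 7 markers chose the cells, so their levels are a description. Dmp1, an acidic phosphoprotein of the mineralizing matrix (chromosome 5, 104202613 to 104214102, GRCm38), had 4998 UMIs in Control osteocytes (2393 CPM) and 5038 in Dach1OE osteocytes (1841 CPM), against 156 and 129 CPM in osteoblasts. Phex, an endopeptidase whose loss causes X-linked phosphate wasting (X, 157162075 to 157415312), had 1308 and 1233 CPM against 140 and 133 CPM. Ackr3, a scavenger receptor for CXCL12, had 284 and 338 CPM against 4.78 and 3.66 CPM. For the membrane proteins Pdpn, Cd109 and Ptprz1 and the Wnt antagonist Dkk1, log2 ratios over osteoblasts lay between 3.93 and 4.81 in both libraries. Phex was detected in 261 of the 270 Control osteocytes, Dmp1 in 195 and Ackr3 in 133. After cells were thinned to 2000 UMIs, which left out 5112 shallower Control cells and 5766 Dach1OE cells (5 and 8 of them osteocytes), Dmp1 was seen in 54.0% and 51.6% of osteocytes, against 0.839% and 0.879% of endothelial cells and 0.174% and 1.19% of haematopoietic cells, 2 cell types that should lack it. Endothelial cells and haematopoietic cells had medians of 3507 and 4889 UMIs in Control and 3327 and 4652.5 in Dach1OE before thinning.

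The number of cells decreased with the number of markers without a gap at the threshold. Among Control cells passing the filters, 343 held 3 markers, 110 held 4, 46 held 5, 40 held 6 and 74 held all 7. In Dach1OE the same numbers were 412, 140, 58, 55 and 102. The order turned upward at 7 markers in both libraries, so that cells with the full set outnumbered those with 5 or with 6. Of the cells with 3 markers, 229 in Control and 302 in Dach1OE counted as osteoblasts. Just outside the threshold, at 3 markers, Dmp1 was at 375 and 324 CPM and Ackr3 at 8.80 and 9.05 CPM. Just inside, at 4 markers, Dmp1 was at 446 and 356 CPM and Ackr3 at 41.0 and 69.9 CPM, while at 7 markers Dmp1 reached 6657 and 5075 CPM and Ackr3 708 and 940 CPM. Median depth of the cells passing the filters climbed from 2995.5 and 2940 UMIs at 0 markers to 6773 and 7225 UMIs at 3. Within the osteocytes it did not climb, with 7928 and 8184.5 UMIs at 4 markers and 6707.5 and 6671 UMIs at 7. With every cell thinned to 2000 UMIs before the rule, and shallower cells left out, 141 Control and 176 Dach1OE cells met the rule.

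**Figure D1:**
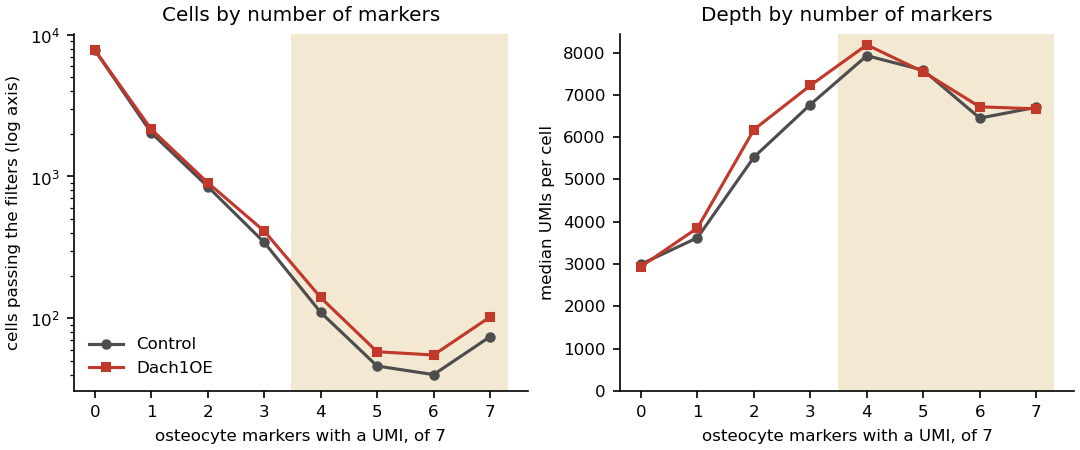
Left, number of cells passing the filters (log axis) by the number of the 7 osteocyte markers with a UMI, for Control (grey circles) and Dach1OE (red squares); right, their median UMIs per cell. Cells counted as osteocytes are shaded. Cell numbers fall from 343 (Control) and 412 (Dach1OE) at 3 markers to 40 and 55 at 6 and are higher again, at 74 and 102, with all 7.

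Genes known from osteocytes that the rule did not use were mostly higher in the osteocytes than in the osteoblasts of the same library. Of 12 such genes, 9 had at least 100 UMIs over both cell sets in each library and were compared; 6 were at least 2-fold higher in both libraries and 1 was at least 2-fold lower. Over all 9272 genes compared, 1.86% were at least 2-fold higher in both libraries and 4.93% at least 2-fold lower; taken library by library, 2.29% were higher and 10.1% lower in Control, and 2.39% higher and 7.91% lower in Dach1OE. The median log2 ratio of the 9 genes was 1.45 in Control and 1.55 in Dach1OE (medians of the genes' own bounds 1.08 to 1.81 and 1.23 to 1.87), and that of all genes was −0.27 and −0.20. The cells of both sets were themselves chosen by expression, and the list was chosen with earlier results of these data known. No test therefore accompanies these ratios.

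Sost, the gene of sclerostin (chromosome 11, 101962458 to 101967015), had 41 UMIs in Control osteocytes and 95 in Dach1OE osteocytes, and 1 UMI in the osteoblasts of each library. That is 19.6 (14.1 to 26.6) and 34.7 (28.1 to 42.4) CPM, against 0.0703 and 0.0554 CPM, a log2 ratio of 8.13 (5.57 to 13.46) and 9.29 (6.78 to 14.61). Few osteocytes carried it: 18 Control cells and 30 Dach1OE cells had a Sost UMI. Mepe, a phosphoprotein of the matrix, was scarcer still, with 18 and 22 UMIs in 13 and 8 osteocytes and log2 ratios of 3.24 and 2.32. Fgf23, the phosphate-lowering hormone of bone, had 1 UMI in Control osteocytes and 2 in Dach1OE osteocytes, against 5 and 6 in osteoblasts, a ratio of 0.45 (−5.12 to 3.61) and 1.14 (−2.20 to 3.62) that was not resolved at this depth. Endothelial cells of the same libraries held 560 and 773 Fgf23 UMIs (16.6 and 20.7 CPM).

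Irx5, an Iroquois homeobox transcription factor, had 477 CPM in Control osteocytes and 500 CPM in Dach1OE osteocytes, against 52.4 and 52.3 CPM in osteoblasts (log2 3.19, 3.05 to 3.33, and 3.26, 3.14 to 3.38). It was detected in 207 and 268 osteocytes. Its neighbour Irx3 (chromosome 8, 91798525 to 91802067; Irx5 lies at 92357625 to 92376286) showed smaller ratios of 1.18 and 1.42. The third gene of the locus, Irx6 (92674288 to 92680956), chosen after its values were seen, had 31 and 45 UMIs in osteocytes against 0 and 1 in osteoblasts. Cd44, the hyaluronan receptor found on osteocyte dendrites, had 364 and 336 CPM against 40.8 and 42.5 CPM. Fbln7, an adhesion protein of mineralizing tissue, had 65.1 and 59.6 CPM against 3.37 and 2.55 CPM, and chondrocytes had more of it, at 170 and 176 CPM. The secretory-pathway kinase Fam20c (1.99 and 1.75) and Tnfrsf11b (1.45 and 1.55) completed the genes that were over 2-fold higher in both libraries. Gja1, the gap-junction protein connexin 43, was at 761 and 718 CPM, against 1066 and 902 CPM in osteoblasts (−0.49 and −0.33). Capg was at 0.59 and 0.43, and its interval in Dach1OE included 0. The potassium channel gene Kcnk2 was the one member at least 2-fold lower, at −2.36 and −1.39.

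**Figure D2:**
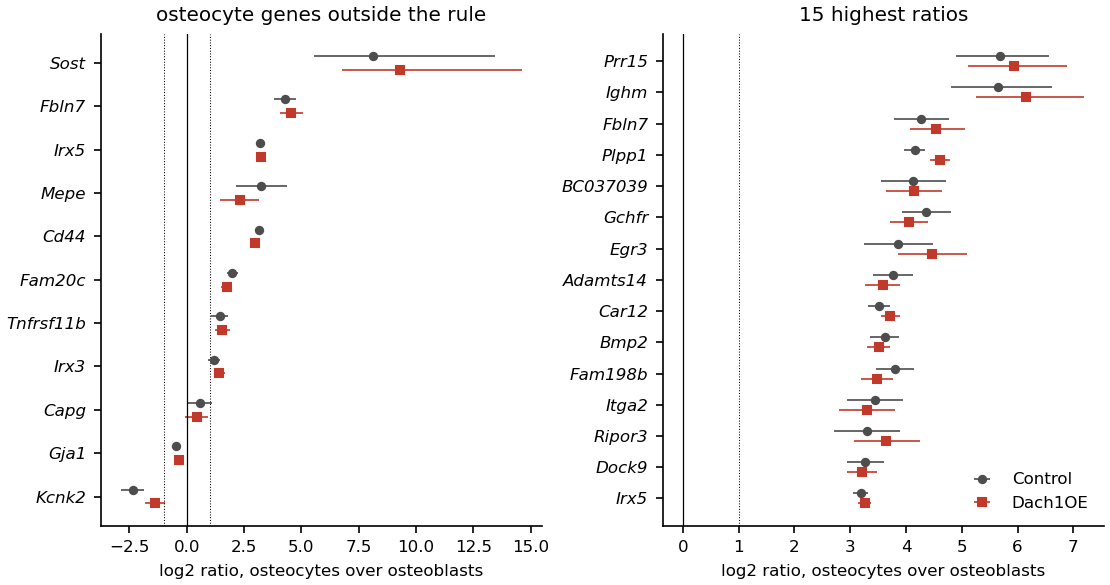
Log2 ratio of CPM, osteocytes over osteoblasts, in Control (grey circles) and Dach1OE (red squares), with 95% intervals of counting error; dotted lines mark 2-fold. Left, osteocyte genes that the rule did not use, where Sost stands at 8.13 and 9.29 with wide intervals and Kcnk2 is the only one below −1; right, the 15 genes with the highest ratios in both libraries, from Prr15 to Irx5.

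The osteoblast set was itself mixed, which bears on every lower ratio. The summed level of 7 marrow stromal markers, Lepr, Adipoq, Cxcl12, Kitl, Ebf3, Hp and Gas6, was 5032 CPM in Control osteoblasts and 2007 CPM in Dach1OE osteoblasts, against 261 and 437 CPM in the osteocytes. When the osteoblasts with a UMI of Lepr, Adipoq or Kitl were left out (962, or 41.1%, in Control and 807, or 30.0%, in Dach1OE), the list was at 177 and 88.2 CPM in those that stayed. The number of genes at least 2-fold lower in osteocytes in both libraries then went from 457 to 148 of the 9272, while the number at least 2-fold higher went from 172 to 226. The median of the osteocyte genes outside the rule went to 1.85 and 1.93, and Kcnk2 to −0.84 and −0.44. Calls that differed against this narrower osteoblast set are given below, as ratios or as counts of a list. Osteocytes with a UMI of Lepr, Adipoq or Kitl were not left out. In Control and Dach1OE they held 51 and 116 Adipoq UMIs and 45 and 69 Kitl UMIs. Higher ratios of marrow stromal genes against the narrower set are therefore partly built in.

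Outside the 7 markers, the 15 genes with the highest ratios in both libraries held few classical osteocyte genes. Prr15, a proline-rich protein of unsettled function, led with 54.1 CPM in Control osteocytes and 44.2 CPM in Dach1OE osteocytes, against 1.05 and 0.720 CPM in osteoblasts (log2 5.68 and 5.94). Plpp1, a phosphatase of lipid phosphates, had 424 and 451 CPM against 23.8 and 18.6 CPM (4.15 and 4.60). Gchfr, the regulator of GTP cyclohydrolase 1, had ratios of 4.36 and 4.05. Egr3, an immediate early transcription factor, had 3.85 and 4.46. Adamts14, a procollagen N-propeptidase, had 3.76 and 3.58. Car12, a membrane-bound carbonic anhydrase, had 264 and 292 CPM against 23.1 and 22.2 CPM (3.51 and 3.72). Bmp2, a bone morphogenetic protein, had 169 and 187 CPM against 13.8 and 16.4 CPM (3.62 and 3.51). The integrin subunit Itga2, the guanine nucleotide exchange factor gene Dock9, Ripor3, the Golgi kinase family gene Fam198b and the uncharacterized BC037039 had ratios from 3.21 to 4.14, and Fbln7 and Irx5 were described above. All 15 remained at least 2-fold higher against the narrower osteoblast set, where their ratios ran from 2.97 to 6.37. A ratio over osteoblasts alone does not show that a gene was particular to osteocytes. In endothelial cells, for example, Plpp1 had 673 and 459 CPM and Gchfr 76.1 and 83.5 CPM, and in chondrocytes Car12 had 770 and 704 CPM.

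Ighm, the heavy chain gene of immunoglobulin M, was second in that order. It had 96 UMIs in Control osteocytes (46.0 CPM) and 118 in Dach1OE osteocytes (43.1 CPM), against 13 and 11 UMIs in osteoblasts, and 13.4 and 23.6 CPM in haematopoietic cells. Ighd and the B cell genes that follow were looked up after the value of Ighm was seen. Ighd, its neighbour among the heavy chain genes, had 13 and 18 UMIs in osteocytes and 2 and 4 in osteoblasts. The B cell genes Cd79a and Igkc had 0 UMIs in the osteocytes of both libraries.

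At the other end, the 10 genes with the lowest ratios were nearly absent from osteocytes. Ptgfr, the receptor of prostaglandin F, had 0 UMIs in both, at least 7.44-fold lower in Control and 5.56-fold lower in Dach1OE at a floor of 3 UMIs per cell set. Tnfsf11, the gene of RANKL, had 3 UMIs in Control osteocytes and 2 in Dach1OE osteocytes, against 15.8 and 9.70 CPM in osteoblasts. The ratios were −3.46 (−5.75 to −1.90) and −3.73 (−6.79 to −1.86), and against the narrower osteoblast set −1.70 (−4.03 to −0.054) and −2.29 (−5.38 to −0.36). The matrix gene Podnl1, the ion channel gene Asic3 and the neuropeptide gene Cartpt stayed at least 2-fold lower there with the whole of each interval. For Ptgfr, with 17 and 11 UMIs in the narrower set, for the somatostatin receptor gene Sstr2 and for the complement gene C6, the interval there reached past 0 in at least 1 library. The other 3 were not 2-fold lower there in both libraries, on few UMIs. Aldh1a2, an enzyme of retinoic acid synthesis, went from −4.74 and −3.52 to 0.52 (−1.57 to 2.24) and 1.68 (−0.091 to 3.33). The cytokine gene Il7 went from −3.89 and −3.71 to −0.39 (−2.81 to 1.39) and −0.54 (−3.72 to 1.58). The chemokine gene Cxcl9 had 0 UMIs in Control osteocytes against 15 in the narrower set, and 3 in Dach1OE osteocytes against 7, a ratio of 1.04 (−1.54 to 3.17).

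Genes of matrix and mineral split between members that were kept and members that were lower. Of 6 mineral-binding proteins compared, none was at least 2-fold higher in both libraries and 1, osteopontin (Spp1), was at least 2-fold lower, at 921 and 674 CPM against 1925 and 1716 CPM, a ratio of −1.06 and −1.35 that was −0.95 and −1.12 against the narrower set. Ibsp, the bone sialoprotein, was higher but under 2-fold, at 0.87 and 0.88. Osteocalcin (Bglap) was at 0.05 and −0.24 over all osteocytes, and at −0.32 and −0.47 against the narrower set. It varied among the clusters of osteocytes described below. Bglap was at 16270 CPM in cluster 1 and 11170 CPM in cluster 3. In clusters 2 and 4, with a median of 7 markers, it was at 1785 and 4806 CPM. Its near-copies Bglap2 and Bglap3 lie beside it on chromosome 3, so reads of the 3 genes may be split between them. Collagen I was as abundant as in osteoblasts: Col1a1 made up 176630 CPM in Control osteocytes and 173985 CPM in Dach1OE osteocytes, against 140784 and 154047 CPM. Of 17 genes of collagen and its processing, only Loxl1, a lysyl oxidase, was at least 2-fold lower (−2.68 and −2.96), which did not hold in Control against the narrower osteoblast set (−0.89 and −1.30). At 1.86% of all genes compared higher and 4.93% lower in both libraries, these counts say little about either list.

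Among 7 mineralization and phosphate genes compared, Alpl, the alkaline phosphatase that frees phosphate from pyrophosphate, was at 152 and 217 CPM in osteocytes against 635 and 581 CPM in osteoblasts (−2.07, −2.23 to −1.90, and −1.42, −1.54 to −1.30). Alpl was 1 of the 5 genes that chose the osteoblasts, so its higher level there is partly built in, also in the narrower set (−1.61 and −1.13). Fam20c was the member higher in both. Ank, the pyrophosphate exporter, stood at 1.10 and 0.88, and at 1.28 and 1.13 against the narrower set. Enpp1, which makes pyrophosphate, stood at 0.27 (−0.11 to 0.63) and 0.62 (0.29 to 0.94), so that in Control the interval included 0, and at 0.92 and 1.33 against the narrower set. In Control its level was 23.3, 19.5 and 14.1 CPM in osteocytes with 4, 5 and 6 markers, below the 29.4 CPM of osteoblasts, and 77.3 CPM in those with 7. The phosphate transporter Slc20a2 was lower at −3.13 and −2.18, and at −1.86 and −0.82 against the narrower set.

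Of 12 osteoblast genes, Bmp8a (2.75 and 2.96) and the transcription factor Mef2c (1.11 and 1.07), a regulator of Sost, were at least 2-fold higher and Dlx5 (−1.56 and −1.17) was at least 2-fold lower. Against the narrower osteoblast set only Bmp8a kept its call in both libraries, with Mef2c at 0.96 and 0.98 and Dlx5 at −1.31 and −0.97. Osterix (Sp7), which entered the choice of osteoblasts, was level at 0.02 and 0.04. Runx2, the master regulator of the lineage, was at −0.88 and −0.63.

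Of 5 Wnt inhibitors compared outside Sost and Dkk1, none was at least 2-fold higher in both libraries and 2 were lower, Sfrp1 and Notum. Over all genes compared, 1.86% were higher and 4.93% lower in both libraries. A count of 0 higher among 5 thus says little about the group. Sfrp1 went to 0.02 and 0.18 against the narrower osteoblast set, whereas the Wnt deacylase Notum stayed at −1.21 and −1.64. Wif1, a secreted Wnt-binding protein, was at −0.06 and 0.67, and at 0.92 and 1.48 against the narrower set. Sfrp4 was at 0.85 and 1.69 against the narrower set, and cluster 5, described below, held 66 of its 91 osteocyte UMIs. Of 11 Wnt ligands and receptors, the ligand Wnt5b (1.78 and 1.47) and the R-spondin receptor Lgr6 (2.34 and 2.32) were higher, and Wnt4 and the frizzled receptor Fzd1 lower. Against the narrower set Fzd1 was at −0.60 and −0.73, and Fzd2 was higher at 1.69 and 1.32. Of 5 Wnt target genes, Notum and Nkd2 (−2.08 and −1.52) were lower and none was higher.

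Both osteoclast cytokines were low in osteocytes, and the decoy receptor was not. Csf1, the macrophage growth factor, was at −2.60 and −2.54, and at −1.19 and −1.23 against the narrower osteoblast set. With Tnfsf11 it made up the 2 lower members of 3 compared, and Tnfrsf11b was the higher one. Of 9 genes of perilacunar remodelling compared, Tgfbr2, a receptor of TGF-beta, was higher (1.95 and 2.06), and Mmp13 and Car2 were lower. Osteoclast enzymes that osteocytes can use to resorb their lacunar wall were not raised, with Ctsk at −0.50 and −0.54 and Acp5 at 13 and 15 UMIs.

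Of 14 BMP and TGF-beta genes compared, 3 ligands were at least 2-fold higher: Bmp2, Bmp4 (2.89 and 3.53) and Bmp3 (1.24 and 1.12). Another 6 were at least 2-fold lower, Bmp5, Bmp6, Tgfb2 and the antagonists Chrdl1, Grem1 and Fst. None of those 6 was 2-fold lower in both libraries against the narrower osteoblast set, where Chrdl1 was at 0.94 (−0.18 to 1.97) and 1.14 (0.18 to 2.03), Tgfb3 was higher at 1.08 and 1.37, and Bmp3 was at 1.01 and 0.998, in Dach1OE just under 2-fold. In the osteocytes, cluster 5, described below, held all 15 Grem1 and all 10 Fst UMIs, 31 of 44 for Tgfb2, 20 of 29 for Bmp6 and 15 of 28 for Chrdl1. The Igf list behaved alike. Of 7 members compared, Igfbp6 was higher (2.48 and 2.72, with its 45 and 73 UMIs in 12 and 11 cells), 5 were lower, and none of these was lower in both libraries against the narrower set. Of the 118 Igfbp6 UMIs, 115 lay in cluster 5, 59 cells with marrow stromal, fibroblast and mural genes, and no other cluster had over 1.29 CPM. The same 59 cells held 103 of the 112 Igf1 UMIs, 719 of the 880 Igfbp4 UMIs and 1205 of the 1385 Igfbp5 UMIs of the osteocytes.

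Among 13 genes of cell processes and actin, Cd44 and the actin bundler Pls3 (1.34 and 1.33) were higher and none was lower. Podoplanin is a marker of the rule and was not counted there. Of 16 mechanosensing genes, none was higher in both libraries, and Itgb5 and Kcnk2 were lower. With 1.86% of all genes compared higher and 4.93% lower, a count of 0 in lists of this length says little about them. The stretch-gated channel Piezo1 was at 0.63 and 0.46 and the integrin subunit Itgb3 at 1.12 and 0.91. Against the narrower set Itgb3 was higher, at 1.60 and 1.51, and the calcium channel gene Trpv4 was lower, at −1.06 and −1.09. Of 5 load-induced genes, the prostaglandin synthase Ptgs2 was higher (1.59 and 1.35, from 31 UMIs in each library), and Igf1 and Postn were lower, Igf1 being at 0.00 and 0.92 against the narrower set. Cluster 5 was at 225 CPM of Igf1 and every other cluster of osteocytes at 3.68 CPM or less, and it held 99 of the 118 Postn UMIs. None of 12 hormone receptors was higher and 1, Fgfr2, was lower, which did not hold against the narrower set (−0.62 and −0.73). Pth1r, the parathyroid hormone receptor, was at −0.43 and −0.26.

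Of 14 nerve and axon guidance genes, Sema7a (1.34 and 1.67) and the netrin gene Ntn1 (1.002 and 1.27) were higher, and Nrp1 and Plxna2 lower, neither of which held in both libraries against the narrower set. Of the 103 Ntn1 UMIs, 91 lay in the same cluster 5, at 198.8 CPM, against at most 12.4 CPM in any other cluster. None of 14 hypoxia and glycolysis genes passed 2-fold in either direction in both libraries. Over all genes compared 1.86% were higher and 4.93% lower, so a count of 0 in a list this short says little about it. Adm, the vasodilator adrenomedullin, fell short of the minimum for that count, and had 65 and 85 UMIs in osteocytes against 26 and 27 in osteoblasts (4.09, 3.41 to 4.81, and 4.38, 3.74 to 5.06). Of 10 cell cycle genes, 3 were lower, Mcm2, Mcm5 and Rrm2, and none was higher. The cell cycle inhibitor gene Cdkn1a was the 1 gene of 7 in the apoptosis and senescence list past 2-fold, at 1.32 and 1.28. The 11 dissociation stress genes compared had none past 2-fold in both libraries and medians of 0.08 and −0.02. Interferon genes (2 of 7 lower) and the study's adipogenic regulators (3 of 6 lower) had no member lower in both libraries against the narrower osteoblast set. The interferon gene Isg15 then stood at 1.20 (−0.24 to 2.53) and 1.16 (0.086 to 2.15), on 8 and 13 osteocyte UMIs.

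Within the osteocytes, several genes outside the rule followed the number of markers per cell. In Control, Irx5 was at 94.1 CPM in osteoblasts with 3 markers and at 172, 493, 715 and 850 CPM in osteocytes with 4, 5, 6 and 7 markers. Cd44 was at 40.7 CPM with 3 markers and at 95.2, 173, 377 and 929 CPM from 4 to 7, and in Dach1OE at 37.8 and then 70.8, 111, 357 and 930 CPM. Plpp1 went from 54.3 CPM at 4 markers to 1030 CPM at 7 in Control and from 57.3 to 1208 CPM in Dach1OE. Each of these genes differed more between osteocytes with 4 and with 7 markers than between osteoblasts with 3 and osteocytes with 4. The former is the wider span of marker numbers, so a steady climb would give the same outcome. Sost had no UMI in Control cells with 3 to 5 markers, and stood at 14.1 CPM with 6 and 68.1 CPM with 7. In Dach1OE it was at 54.4 CPM with 6 markers and 104 CPM with 7. Mepe, on few UMIs, did not climb. From 4 to 7 markers it was at 12.2, 5.58, 3.52 and 7.36 CPM in Control and at 16.8, 0, 2.59 and 1.44 CPM in Dach1OE.

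Osteoblast genes ran the other way. Smpd3, a sphingomyelinase needed for mineralization, was at 497 CPM in Control osteoblasts with 3 markers and at 446, 323, 120 and 35.0 CPM in osteocytes with 4 to 7. Alpl went from 235 to 51.5 CPM between 4 and 7 markers in Control and from 294 to 86.7 CPM in Dach1OE. Tnc, the matrix protein tenascin C, picked after its values were seen, was at 2902 CPM in Control osteoblasts without a marker, 355 CPM with 3, 228 CPM with 4 and 29.4 CPM with 7. Not every matrix gene declined. Col1a1 lay between 173097 and 188024 CPM at every marker number from 4 to 7 in Control, and Ibsp was at 3305 CPM with 4 markers and 10083 CPM with 7.

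**Figure D3:**
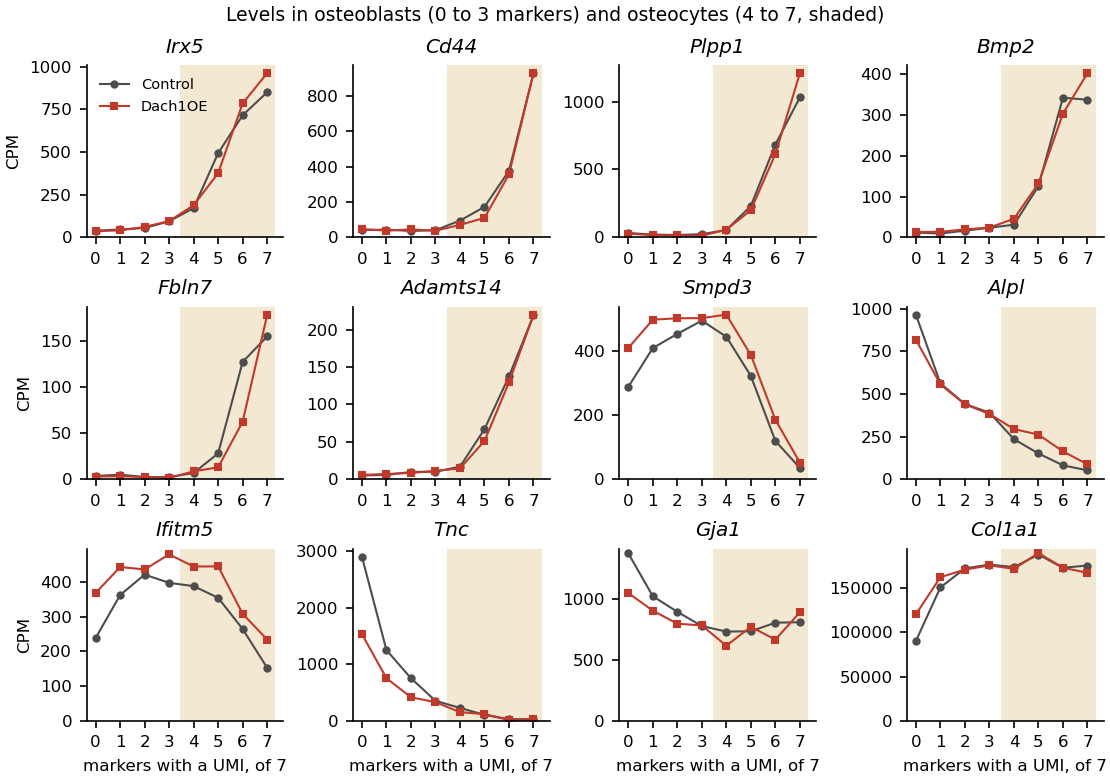
Level (CPM of the summed UMIs) of 12 genes outside the rule by the number of the 7 markers with a UMI, in osteoblasts (0 to 3 markers) and osteocytes (4 to 7, shaded), for Control (grey circles) and Dach1OE (red squares). Irx5, Cd44, Plpp1, Bmp2, Fbln7 and Adamts14 climb across the shaded part while Smpd3, Alpl and Ifitm5 decline, and Tnc declines from 0 markers on. Gja1 and Col1a1 stay within a narrow range in the shaded part. Smpd3, Alpl and Ifitm5 were among the genes that chose the osteoblasts, so their levels in the unshaded part are partly built in.

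Clustering of the osteocytes (Leiden, over both libraries) gave 6 clusters, and not all of them answered to the name. Cluster 1, the largest with 216 cells or 34.6% of the osteocytes, had a median of 4 of the 7 markers and of 5 of the 5 osteoblast markers. None of the 7 osteocyte markers was at least 1.5 times its level in the other osteocytes, and 4 of 7 osteoblast markers were, Alpl, Ifitm5, Smpd3 and Bglap. Cd44 was at 37.4 CPM there and Fbln7 at 3.68 CPM, close to the osteoblast levels given above, and Sost had 1 UMI, whereas Irx5 was at 147.3 CPM, above its 52.4 and 52.3 CPM in osteoblasts. The cells of this cluster thus met the rule with osteoblast markers above, and no osteocyte marker above, the other osteocytes. Chn1, a Rac regulator, the transcription factor Twist1 and the matrix proteoglycan Omd led the cluster.

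Clusters 2 and 4 held the osteocytes with the full set, with a median of 7 markers and all 7 at least 1.5 times their level in the other osteocytes. They differed in what led them. Cluster 2 (130 cells) was led by Dmp1 (7698 CPM, against 1007 CPM in the other osteocytes), Ptgs2, Itgb3, Egr3, Mmp13 and Sost (100.8 against 14.3 CPM). Mmp13 had a UMI in 12.31% of these cells, at 807.9 CPM, and was higher in cluster 5 at 1276 CPM. The pyrophosphate genes Ank (324.5 CPM) and Enpp1 (108.6 CPM) and Spp1 (1848 CPM) were at their highest in this cluster. Cluster 4 (69 cells) was led by Nrgn and Basp1, both known from neurons, Irx6 (115.7 CPM, against 4.83 CPM), the ecto-nucleotidase Nt5e, Gchfr, Fbln7 (271.4 CPM), Ighm (202.0 CPM) and Adm (149.4 CPM). Sost was as high there, at 98.9 CPM, and Cd44 was at 1193 CPM. The haematopoietic markers Hba-a1 (61.0 CPM) and Coro1a and the endothelial marker Pecam1 also reached 1.5 times their level in the other osteocytes. Scrublet marked 2 cells of cluster 4. Pf4 and Ppbp, platelet genes, were also among its leading genes; at 2000 UMIs per cell, Pf4 was seen in 6.42% of Control and 4.90% of Dach1OE osteocytes and in 10.4% and 9.08% of endothelial cells. Cluster 3 (130 cells, median of 5 markers) was led by Gng4, Plppr4 and St3gal5 and had Bmp2 at 282.9 CPM, Irx5 at 749.2 CPM, the collagen cross-linker Loxl2 at 703.0 CPM and Sost at 3.08 CPM. As in cluster 1, none of the 7 markers there was at least 1.5 times its level in the other osteocytes, and Dmp1 was at 382.3 CPM, with a UMI in 38.46% of the cells, beside 371.4 CPM in cluster 1. The 7 markers, Dmp1 among them, were left out of the genes used for clustering, but they had chosen the cells. The other leading genes were picked from the clusters that they describe. All are given as description. Clusters 1 to 4 held 545 osteocytes.

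The remaining 80 osteocytes were led by genes of other cell types. In cluster 5 (59 cells) all 7 marrow stromal markers, 6 of 8 fibroblast markers, 4 of 6 mural markers and all 6 septoclast markers, Mmp13 among them, reached 1.5 times or more their level in the remaining osteocytes, with Rgs5 at 1675 CPM, Cxcl12 at 2239 CPM and Adipoq at 329.8 CPM. Cluster 6 (21 cells) was led by the basophil and myeloid genes Prss34, Mcpt8, Cpa3 and Mpo, with haemoglobin gene Hba-a1 at 542.7 CPM. Scrublet marked 13 cells of cluster 5 and 8 of cluster 6, 21 of the 23 osteocytes it marked in all. The part of doublets in the results below was not tested beyond leaving these cells out. Over all osteocytes, the endothelial list had 62.7 and 55.6 CPM with 7 of 8 genes detected and Cdh5 at 0 by the rule, and the haematopoietic list had 50.7 and 71.6 CPM with 5 of 8 genes detected. Without the 80 cells the median of the osteocyte genes outside the rule was 1.4997 in Control and 1.63 in Dach1OE.

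**Figure D4:**
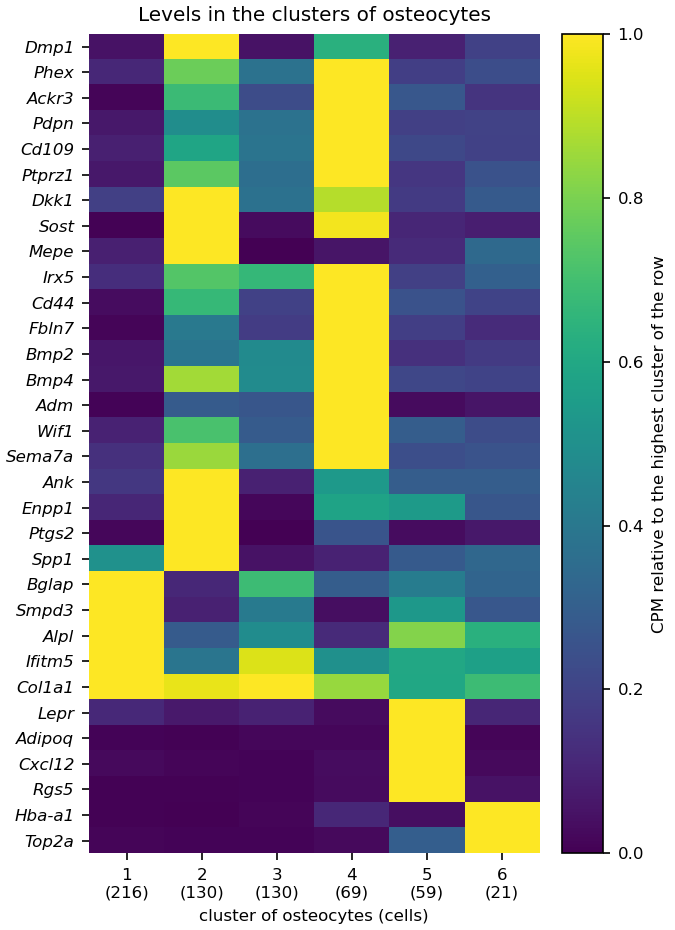
Level of 32 genes in the 6 clusters of osteocytes (columns, with cells in parentheses), as CPM relative to the highest cluster of each row. Clusters 2 and 4 hold the highest levels of the 7 markers and of Sost; cluster 1 holds those of Smpd3, Alpl and Bglap, cluster 5 those of Lepr, Adipoq, Cxcl12 and Rgs5, and cluster 6 those of Hba-a1 and Top2a.

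The first comparison between the groups asked whether osteocytes made up a different share of the cells when DACH1 was overexpressed in the endothelium. Osteocytes were 1.02% (0.903 to 1.15, exact binomial) of kept Control cells and 1.21% (1.09 to 1.34) of kept Dach1OE cells, a difference of 0.191 points (0.0157 to 0.365, Newcombe interval). Digestion, crushing and bead depletion of other cell types enter that share. Of osteocytes and osteoblasts together, osteocytes were 10.3% (9.20 to 11.6) in Control and 11.7% (10.5 to 12.9) in Dach1OE, a difference of 1.33 points (−0.317 to 2.95), which was not detectable at this depth. Each pool held male and female mice, so cells with a Xist UMI and no Y-linked UMI were also compared by themselves, as were cells with a Y-linked UMI and no Xist UMI. In the cells with Xist the shares of kept cells were 1.13% and 1.27%, 0.137 points apart (−0.170 to 0.448), and in the cells with Y-linked UMIs 0.866% and 1.18%, 0.309 points apart (−0.0408 to 0.651). The difference thus had the same direction in cells of both sexes and an interval including 0 in each. In cells thinned to 2000 UMIs, shallower cells left out, it was 0.0870 points (−0.0690 to 0.242), and the difference over the bone-forming cells turned to −0.106 points (−1.72 to 1.47). Against the narrower osteoblast set the latter was −0.494 points (−2.86 to 1.83). The 6 clusters took similar shares of both libraries, from 34.8% of Control and 34.4% of Dach1OE osteocytes in cluster 1 to 4.07% and 2.82% in cluster 6.

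The second comparison was of expression within osteocytes, Dach1OE over Control, across 4448 genes with at least 100 UMIs over both. At least 2-fold apart were 3 genes higher in Dach1OE (0.0674% of the genes) and 21 lower (0.472%), and the median log2 ratio of all genes was 0.01. The osteocyte genes outside the rule held none of them, with 8 compared and a median of −0.10. Sost was at 0.82 (0.28 to 1.39). No compared member of the pathway lists for mineral-binding matrix proteins, bone collagen and its processing, mineralization, Wnt signalling, osteoclast regulators, hormone receptors, hypoxia or axon guidance passed 2-fold. Some lists had few members compared, with 2 osteoclast regulators, 2 Wnt antagonists and 1 Wnt target. With so small a share of all genes past 2-fold, none past it says little about these lists. Among all pathway lists, the genes past 2-fold were Panx3 and Igfbp5, higher, and Mmp13, Postn and Top2a, lower.

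Some differences were spread over many osteocytes, had one direction in cells of both sexes and appeared also in osteoblasts. The osteoblast ratios compare sets that differed in marrow stromal markers (5032 CPM in Control, 2007 CPM in Dach1OE). March3, a membrane-bound ubiquitin ligase (chromosome 18, 56761716 to 56925548), had 249 UMIs in 146 Control osteocytes and 81 UMIs in 65 Dach1OE osteocytes. Its log2 ratio was −2.01 (−2.39 to −1.64), with −2.69 in cells with Xist, −1.78 in cells with Y-linked UMIs and −1.89 in osteoblasts. It had 119 and 29.6 CPM in osteocytes, while in marrow stromal cells it had 32.4 and 41.2 CPM in endothelial cells 14.2 and 12.5 CPM and in chondrocytes 11.6 and 7.16 CPM. Bglap3, the third osteocalcin gene, had 1503 and 767 UMIs (−1.36, −1.49 to −1.23; −1.33 and −1.49 by sex; −1.10 in osteoblasts), and because Bglap and Bglap2 are near-identical to it the assignment of its reads is uncertain. Bglap was at −0.28 and Bglap2 at −0.34. Gm7967, a long non-coding RNA, was at −1.11 (−1.60 to −0.62), with −1.17 and −1.27 by sex and −0.89 in osteoblasts. In the other direction, Cthrc1, a secreted collagen triple helix repeat protein that fell just short of 2-fold, had 257 CPM in Control osteocytes and 486 CPM in those of Dach1OE (0.92, 0.78 to 1.07), with 0.71 and 0.87 by sex and 0.86 in osteoblasts. Bmp7 was at 0.93 (0.45 to 1.43), with 0.88 and 0.99 by sex and 0.28 in osteoblasts. Gm266 was at 0.85 (0.40 to 1.32), with 0.64 and 0.69 by sex and 0.27 in osteoblasts. Without clusters 5 and 6, March3 was at −2.18, Bglap3 at −1.32, Gm7967 at −1.11 and Cthrc1 at 0.92.

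Col10a1, the collagen of hypertrophic cartilage, was the highest in ratio, with 40.7 CPM in Control and 92.1 CPM in Dach1OE osteocytes (1.18, 0.82 to 1.55). It was also present in cells that should lack it, at 585 and 975 CPM in endothelial cells and 522 and 1640 CPM in haematopoietic cells, and reached 8474 and 10978 CPM in chondrocytes. Its level in osteocytes lay below that background in both libraries and is not read as expression. Panx3, a pannexin channel of bone and cartilage, had 57.9 and 117 CPM (1.01, 0.70 to 1.32), with 1.05 and 2.11 by sex and −0.08 in osteoblasts. Igfbp5 had 369 and 1016 UMIs (1.07), of which 32.5% in Control came from 1 cell, and without clusters 5 and 6 it was at 0.03.

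Many of the other lower genes rested on few cells or on the cells of clusters 5 and 6. Mmp13, the collagenase of bone and cartilage, had 1065 UMIs in 32 Control osteocytes and 202 UMIs in 30 Dach1OE osteocytes (−2.79). In Control 1 cell held 31.0% of the UMIs, and without the top cell of each library Mmp13 was at −2.65. It had opposite directions by sex, 1.23 with Xist and −3.26 with Y-linked UMIs. Hbegf was at −3.26, with 48.2% of the Control UMIs in 1 cell, and at −2.64 without the top cell of each library. Its ratios by sex were 0.76 and 0.75, on only 3 and 5 UMIs with Xist and 2 and 6 with Y-linked UMIs. Postn was at −1.46 with 68.8% of the Control UMIs in 1 cell, and Malat1 at −1.16 with 38.1% in 1 cell and −0.51 without the top cell of each library. Prg4, Prss34, Mcpt8, Cpa3 and Gata2, which led or marked clusters 5 and 6, were between −2.84 and −1.24. Top2a, Ube2c and Cks2, genes of dividing cells, were at −1.505, −1.21 and −1.14, and without clusters 5 and 6 at 0.36, 0.9996 and 0.054. The other 6 genes at least 2-fold lower, Mt2, Ifitm1, Fabp4, Itga6, Ucp2 and Stmn1, were between −1.90 and −1.02, and the metallothionein gene Mt2 was at 0.69 in osteoblasts. Fabp4, seen in 40 Control and 34 Dach1OE osteocytes, was at −2.33 and −2.75 by sex and −0.83 in osteoblasts. Without the top cell of each library, which held 20.4% and 24.6% of its UMIs, Fabp4 was at −1.32. With those clusters left out, 3 genes were at least 2-fold higher and 11 lower.

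**Figure D5:**
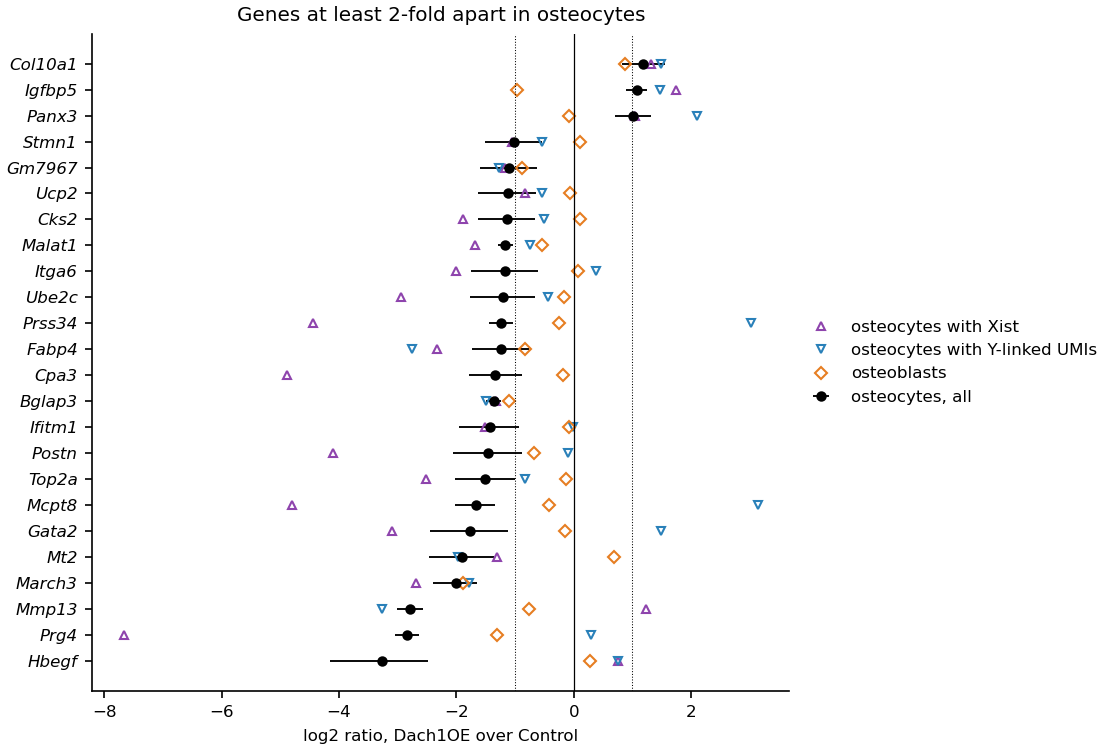
Log2 ratio, Dach1OE over Control, of the 24 genes at least 2-fold apart in osteocytes (black circles, with 95% intervals of counting error), beside the ratio in osteocytes with Xist (upward triangles), in osteocytes with Y-linked UMIs (downward triangles; none for Cpa3, which had no such UMI in Control) and in osteoblasts (diamonds); dotted lines mark 2-fold. March3, Bglap3, Gm7967 and Col10a1 have all 4 marks on one side of 0 and close together, whereas Prg4, Mmp13, Mcpt8 and Prss34 have the sexes on opposite sides.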

How the data were processed

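Cells were captured on the BD Rhapsody system, and 2 libraries were deposited, 1 per group. The authors ran the BD Rhapsody WTA Analysis Pipeline (version 1.11 in the file headers, where the methods give another version) on GRCm38 with GENCODE release M19, with intronic reads counted. The deposited values are counts per cell and gene of reads, raw UMIs and UMIs corrected for sequencing error, and the corrected counts were used (143986818 Control and 166999989 Dach1OE UMIs).

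Cells with 500 to 6000 genes and under 25% mitochondrial UMIs were kept. UMIs were summed per library and cell set and given per 1000000 of the sum (CPM). Intervals at 95% were exact Poisson for CPM, exact binomial (Clopper-Pearson) for shares, Newcombe for differences of shares and exact conditional binomial for ratios, and cover counting error only. With 1 library per group no test was run. A gene was called at 2-fold (log2 of 1). Osteocytes over osteoblasts needed 100 UMIs over both sets in each library, and Dach1OE over Control 100 UMIs over both libraries. Clusters came from 2000 variable genes outside the 7 markers, 20 principal components and Leiden at resolution 0.5 (Python 3.11.15, Scanpy 1.11.5, leidenalg 0.10.2, SciPy 1.17.1). Scrublet marks were not used to remove cells. Positions of 316 of 318 genes came from GENCODE release M21.

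Named genes were the members of fixed lists, the 15 highest and 10 lowest ratios of the same sign in both libraries, and the 12 highest and 12 lowest Dach1OE over Control with the same sign in cells of both sexes, with genes past 2-fold added. The members, lists and rules were chosen with earlier results of these data known. On simulated counts of 4448 genes, 200 were changed, all by more than the 2-fold of a call, and 162 of these could be compared. All 162 were called, and 0 unchanged genes. The simulated counts held Poisson error alone, without UMIs gathered in single cells. They checked the calculation and say nothing about the genes called in these data. Alternatives changed 1 choice at a time (17 planned, 2 added), except that thinning to 2000 UMIs also left out shallower cells.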

Additional observations from a re-analysis of the deposited data

Results flagged for a closer look

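For 7 of the genes at least 2-fold lower in Dach1OE osteocytes, Dach1OE and Control differed in opposite directions in the osteocytes with Xist and in those with Y-linked UMIs, and the difference between the sexes was not tested. Prg4, the lubricin of joint surfaces, was at −7.66 with Xist and 0.289 with Y-linked UMIs. Mmp13 was at 1.23 and −3.26. The transcription factor Gata2 was at −3.09 and 1.49, the basophil proteases Mcpt8 at −4.8 and 3.13 and Prss34 at −4.43 and 3.03, and the integrin subunit Itga6 at −2.01 and 0.386. Cpa3, a mast cell protease, was at −4.89 with Xist (30 and 1 UMIs) and had 0 UMIs in Control and 20 in Dach1OE cells with Y-linked UMIs. In Control, 1 osteocyte held between 21.9% (Gata2) and 51.6% (Prss34) of the UMIs of each. Each pool was a pair of mice, so sex and mouse cannot be told apart.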

How the results depend on the processing

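Depth limited what could be shown of scarce genes: 18 and 30 osteocytes had a Sost UMI. The share of kept cells was higher in Dach1OE under every alternative, but its interval then included 0 with at least 5 markers (−0.00729 to 0.264 points), with at least 4000 UMIs (−0.131 to 0.542), in thinned cells and within each sex. The share of bone-forming cells turned to −1.06 points with at least 4 of 5 osteoblast markers and to −0.494 points without osteoblasts holding Lepr, Adipoq or Kitl. The median ratio of the osteocyte genes outside the rule was 1.83 and 2.08 (Control and Dach1OE) with at least 5 markers, 2.34 and 2.39 in cells thinned to 2000 UMIs (shallower cells left out), 1.85 and 1.93 without those osteoblasts, 1.17 in Dach1OE cells with Y-linked UMIs, 1.95 in Control with at least 4 osteoblast markers and 1.91 in Control as a mean over cells.

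The numbers of genes higher and lower in Dach1OE osteocytes were 6 and 67 with at least 3 markers, 3 and 12 with at least 5, 1 and 6 in thinned cells, 6 and 13 without cells marked by Scrublet, 9 and 6 in cells with Y-linked UMIs, 9 and 9 in cells with Xist, 806 and 1354 with no minimum beyond 1 UMI, and 3 and 11 without clusters 5 and 6. The number higher was 5 where Dmp1 was required or TMM scaling was used, and 6 under 10% mitochondrial UMIs or as a mean over cells, and the number lower was 5 with at least 400 UMIs. Col10a1 turned to −0.73 with at least 3 markers, Mt2 to 0.42 and Cks2 to 0.043 in thinned cells, and Top2a to 0.36, Ube2c to 0.9996 and Cks2 to 0.054 without clusters 5 and 6. Over osteoblasts, Cxcl9 turned to 0.38 in Dach1OE cells with Xist and to 1.04 (3 UMIs) without the osteoblasts named above, and Aldh1a2 there to 0.52 in Control and 1.68 in Dach1OE. No value could be given for a ratio with 0 UMIs on one side. The causes were not tested. Leaving out clusters 5 and 6 or those osteoblasts was chosen after seeing the data. No paired analysis was possible because each group is 1 library and the labels give no replicate numbers.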

Other observations

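Fgf23, known as a hormone of osteocytes, was counted mainly outside them, with 560 UMIs in Control and 773 in Dach1OE endothelial cells, seen in 2.18% and 2.64% of those cells at 2000 UMIs per cell, and 11 and 22 UMIs in chondrocytes. Tnfsf11 had 98.2 and 82.0 CPM in marrow stromal cells. Lpl and Cxcl12 stood at 0.90 and 0.87, Dach1OE over Control, in osteocytes and at −1.24 and −1.34 in osteoblasts. Without clusters 5 and 6 they stood at −1.57 and −1.33 in the osteocytes. The Control and Dach1OE osteoblasts held 53748 and 26836 Cxcl12 UMIs, but 1289 and 949 without the cells holding Lepr, Adipoq or Kitl. Marrow stromal cells were 9.57% of kept Control cells and 3.74% of kept Dach1OE cells, and their part in these ratios was not tested. Cdkn1c, a cell cycle inhibitor, and Eef2kmt were at 0.95 and 0.96 in osteocytes, and at 0.89 and 1.09 without clusters 5 and 6.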
